A study of Mus musculus with 6 samples.

Results

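The very low density lipoprotein receptor gene, Vldlr, was absent on 2 of the 4 arrays of the receptor cross, and its loss was read there with and without its partner receptor, apolipoprotein E receptor 2 (Apoer2, gene symbol Lrp8). The members were chosen by their labelled genotype alone: the arrays of the VLDLR KO and APOER2-VLDLR KO mice lacked Vldlr, and those of the Wild type and APOER2 KO mice carried it. These were 4 of the 6 arrays of the series. Among 11499 genes tested, 14 differed by 2-fold or more in the same direction both in VLDLR KO minus Wild type and in APOER2-VLDLR KO minus APOER2 KO.

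The series compared gene expression in mouse models of reeler, one array per genotype. The 4 mice of the receptor cross came from parents heterozygous for both receptors, and the other 2, a Dab1 and a Reln knockout, came from matings of their own. Every mouse was labelled as male, aged 21 days, untreated and of mixed C57BL/6 and 129 background, and 1 lobe of frontal cortex was used per array. Both copies of the named genes are taken as lost in the whole animal from the labels, which give no allele and no Cre driver. The mixed background means that segments of either strain can differ between littermates.

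Reelin is a large secreted glycoprotein that guides the placement of migrating neurons in the layers of the cortex and in the cerebellum. Vldlr and Apoer2 are its receptors, both members of the low density lipoprotein (LDL) receptor family, and binding of reelin leads to phosphorylation of the adaptor protein Dab1 on their tails. Loss of 1 receptor alone gives a mild phenotype, whereas loss of both gives one like that of the reeler mouse. Vldlr also takes up apolipoprotein E-containing lipoprotein particles and binds lipoprotein lipase.

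Values are array signals on a linear scale, and differences are on the log2(signal + 28) scale, so they understate changes of dim genes. Median signals over all probe sets were 86.5 to 92.3 on the 6 arrays, and probe sets for bacterial transcripts, a measure of background, reached 28.4 to 39.6. Array profiles correlated at r = 0.974 to 0.98 among the 4 arrays of the cross, as a description over genes. Slc17a7, a vesicular glutamate transporter of excitatory neurons, was bright on all 4 arrays of the cross. It read 3496.5 on the Wild type, 3483.9 on the APOER2 KO, 3449.2 on the VLDLR KO and 3699.4 on the APOER2-VLDLR KO array. This 1 gene does not by itself mark cortex. Genes of cerebellar granule cells and of the choroid plexus were bright too, with Gabra6 at 2014.9 and Ttr at 7609.9 on the APOER2 KO array, and not on that array alone. The summed signal of the granule cell list was 19310.6 on the Wild type, 19210.0 on the APOER2 KO, 16096.8 on the VLDLR KO and 6116.3 on the APOER2-VLDLR KO array. That of the choroid plexus list was 9165.9, 8970.5, 6115.8 and 7970.0 in the same order. The APOER2 KO array alone carried signal of the Y-linked Eif2s3y (367.5, against 0.6 to 7.7 elsewhere) and little of the X-inactivation transcript Xist (124.9, against 3367.6 to 4006.0). It thus read as male, as labelled. All other arrays, the Wild type and both arrays without Vldlr among them, read against their male label. The APOER2 KO array alone was also bright for the pituitary hormone gene Gh (3704.8, against 13.1 to 32.4). The first of each pair of differences below, VLDLR KO minus Wild type, does not use the APOER2 KO array, and the genes that passed the test are given without it as well.

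Vldlr itself fell on both arrays labelled as lacking it. Its brightest probe set read 551.6 on the Wild type and 491.7 on the APOER2 KO array, and 187.3 on the VLDLR KO and 185.6 on the APOER2-VLDLR KO array. The Dab1 and Reln knockout arrays read 482.9 and 357.6, so the arrays without Vldlr were the lowest of all 6 and did not overlap the others. The difference was -1.43 in the pair with Apoer2 and -1.28 in the pair without it, with a mean of -1.36 (SE 0.13, 2 arrays against 2, limma with Benjamini-Hochberg adjusted p = 0.0212), a fall of 2.56-fold. An exact two-sided permutation test cannot give a p below 0.333 with 2 arrays against 2, and it gave that value. Without the Wild type array the adjusted p was 0.143, and without the APOER2 KO array it was 0.0798, with differences of -1.28 and -1.43.

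All 6 Vldlr probe sets were lower in both pairs, by log2 differences of -0.57 to -1.61 in the first and -0.44 to -1.79 in the second. The probe set 1417900_a_at read 333.3 on the Wild type, 327.1 on the APOER2 KO, 90.3 on the VLDLR KO and 74.5 on the APOER2-VLDLR KO array. Its residual signal stood above the bacterial controls on both arrays without Vldlr. The files do not say which part of the gene was removed or where each probe set lies, so a residual signal cannot be assigned to remaining transcript or to background.

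**Figure D1:**
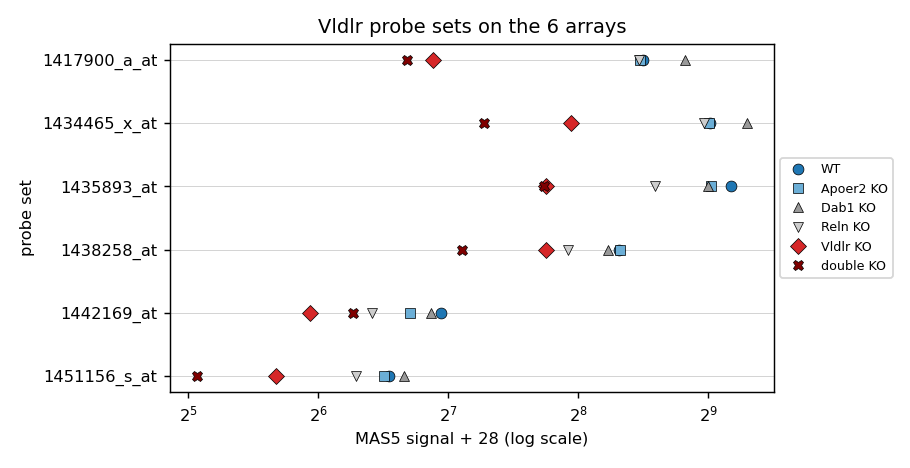
Signal + 28 on a log2 axis for each of the 6 Vldlr probe sets on each array, with 1 point per array and no error bars because each genotype has 1 array. The VLDLR KO and double KO (APOER2-VLDLR KO) points lie below the Wild type and APOER2 KO points at every probe set.

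The partner receptor did not follow. Lrp8 read 357.8 on the Wild type and 379.8 on the VLDLR KO array, a difference of 0.08, and 4.2 and 13.7 on both arrays that lack it by label. Reln, the ligand, read 1669.0 on the Wild type, 1819.7 on the APOER2 KO, 1880.0 on the VLDLR KO and 1498.3 on the APOER2-VLDLR KO array. Dab1, the adaptor, read 576.2, 573.1, 626.0 and 516.4 in the same order. For both genes the arrays with and without Vldlr overlapped, and the pairs differed in sign (Reln 0.17 and -0.28, Dab1 0.11 and -0.14).

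Beyond Vldlr, 5 genes passed an adjusted p of 0.05 in the 2 against 2 comparison, 6 genes in all (limma, Benjamini-Hochberg, 0.0522% of the genes tested). Tmem87a, Efhd2, Sc5d and Prune2 fell and 2900052N01Rik rose. With 1 mouse per genotype, the p-values measure only the spread between arrays of different Apoer2 status. Without the APOER2 KO array 9 genes passed, among them 5 of these 6, without the Wild type array 7, without the VLDLR KO array 103 and without the APOER2-VLDLR KO array 21. Without the APOER2 KO array the limma adjusted p was 0.00779 for Efhd2 (-2.69), 0.0416 for Tmem87a (-2.98) and 0.0455 each for Sc5d (-1.71), Prune2 (-1.54) and 2900052N01Rik (1.42). With all 6 arrays in 3 groups, or with the mean of each gene's probe sets, 1 passed, Tmem87a.

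Tmem87a, which encodes a membrane protein of the Golgi, read 284.7 on the Wild type and 268.5 on the APOER2 KO array, and 11.6 on the VLDLR KO and 11.8 on the APOER2-VLDLR KO array. The latter 2 values are below the highest bacterial control on every array, whereas the Dab1 and Reln knockouts read 381.2 and 278.0. The 2 arrays without Vldlr thus stood apart from all 4 with it. The difference was -2.94 (SE 0.18, adjusted p = 0.00718 by limma with Benjamini-Hochberg) and rests on 1 probe set. Its size is set by the pseudocount, since both values without Vldlr are at background: it was -4.45 with a pseudocount of 1 and -1.85 with one of 90. A probe set named for no gene here, 1431473_at, had the same shape: 347.8 and 272.4 with Vldlr in the cross, 6.8 and 5.2 without it.

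Sc5d encodes lathosterol oxidase, an enzyme of the last steps of cholesterol synthesis. It read 781.5 on the Wild type, 689.1 on the APOER2 KO, 230.4 on the VLDLR KO and 209.3 on the APOER2-VLDLR KO array. The Dab1 knockout read 640.6, near the arrays with Vldlr, and the Reln knockout 235.9, near those without it, and at this probe set both arrays without Vldlr were lower than all 4 with it. The difference was -1.62 (SE 0.12, limma adjusted p = 0.0115), or 3.08-fold, and its adjusted p was 0.0538 without the Wild type array. The other probe sets of Sc5d were lower in both pairs as well, by -0.84 and -0.63 for 1424709_at and -0.99 and -0.53 for 1434520_at. Of these, 1434520_at did not set the arrays without Vldlr apart from all 4. At 1434520_at the VLDLR KO and APOER2-VLDLR KO arrays read 283.3 and 325.2 and the Dab1 and Reln knockouts 240.4 and 216.1. At 1424709_at the same arrays read 124.9, 133.7, 138.2 and 140.2, so those without Vldlr were the lowest, by a narrow margin.

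Efhd2, whose product swiprosin-1 is a calcium-binding protein, read 4062.9 on the Wild type and 2587.6 on the APOER2 KO array against 696.8 on the VLDLR KO and 525.6 on the APOER2-VLDLR KO array. The Dab1 knockout, which carries Vldlr, was lower still at 445.8, and the Reln knockout was high at 4735.2. The arrays of the cross did not overlap, but those without Vldlr were not outside all 4 with it. The difference was -2.37 (SE 0.22, limma adjusted p = 0.0212), or 5.16-fold. The other Efhd2 probe set gave -0.82 and -0.47 in the pairs.

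2900052N01Rik, a transcript with no established function, was the gene that rose. It read 247.4 on the Wild type and 285.5 on the APOER2 KO array, and 744.4 on the VLDLR KO and 672.7 on the APOER2-VLDLR KO array. Both arrays without Vldlr were above all 4 with it, of which the Reln knockout was the highest at 370.6. The difference was 1.32 (SE 0.12, limma adjusted p = 0.0212), or 2.50-fold, and its adjusted p was 0.0594 without the Wild type array. All 3 of its probe sets were higher in both pairs.

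Prune2, which encodes a neuronal protein with a BCH domain, gave opposite answers at its probe sets. The brightest, 1455342_at, read 1599.6 on the Wild type, 1611.4 on the APOER2 KO, 477.0 on the VLDLR KO and 595.4 on the APOER2-VLDLR KO array, a fall of 1.54 on the log2 scale (SE 0.12, limma adjusted p = 0.0115). The probe set 1432198_at read 61.7, 81.9, 833.7 and 770.9 in the same order, a difference of 3.06 (limma adjusted p = 0.0033 over all probe sets). The Dab1 and Reln knockouts read 503.4 and 665.1 at the first and 291.1 and 384.8 at the second, so at the first they overlapped the arrays without Vldlr and at the second they lay between the groups. With all probe sets of the gene averaged, Prune2 was at 0.20, so no direction is given for the gene as a whole.

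Such opposed probe sets were rare. Of 5162 genes with several probe sets above the filter, 75 had one that differed by 1.5-fold or more in both pairs, and 2 had such probe sets in both directions: Prune2 and Sorl1. Sorl1 belongs to the LDL receptor family and sorts amyloid precursor protein. Its probe set 1426258_at read 1391.0 on the Wild type, 1226.2 on the APOER2 KO, 2211.8 on the VLDLR KO and 2079.9 on the APOER2-VLDLR KO array. Both pairs were higher there (0.66 and 0.75, limma adjusted p = 0.218), and the difference was 0.61 to 0.79 with 1 array left out in turn. Its probe set 1460390_at read 651.7, 551.9, 290.8 and 311.2 in that order, lower in both pairs (-1.09 and -0.77). The remaining Sorl1 probe set gave -0.05 and -0.09. Over every probe set above the filter, 9 passed an adjusted p of 0.05, 0.0399% of those tested.

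**Figure D2:**
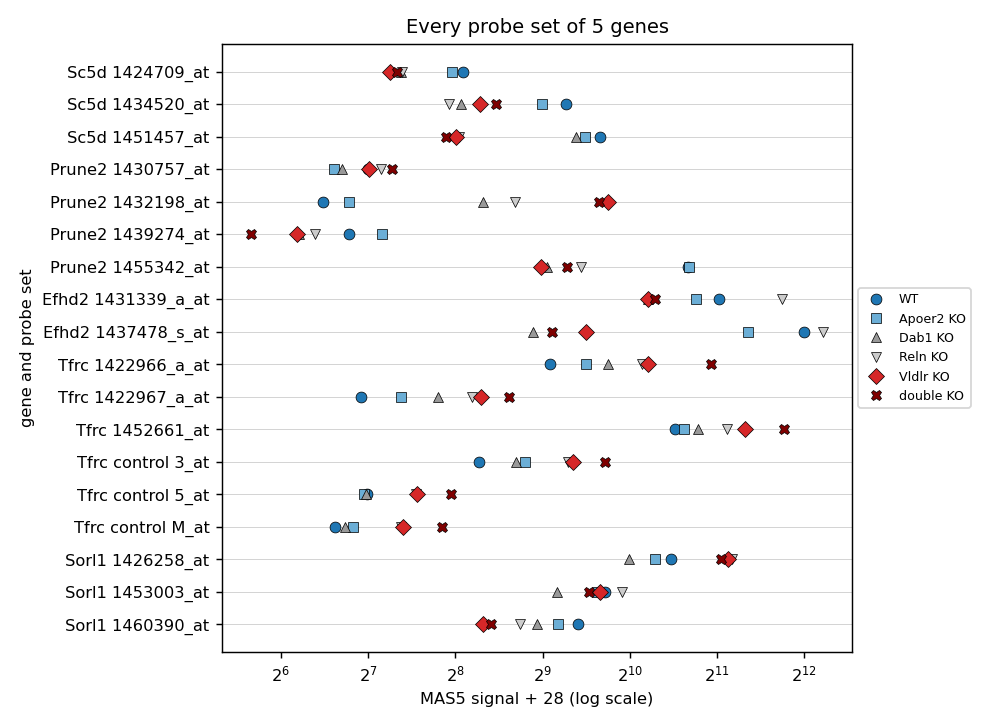
Signal + 28 on a log2 axis for every probe set of Sc5d, Prune2, Efhd2, Tfrc and Sorl1, 1 point per array. The red VLDLR KO and double KO points lie on 1 side of the blue Wild type and APOER2 KO points for Sc5d, Efhd2 and Tfrc, and on both sides for Prune2 and Sorl1, where 1432198_at and 1455342_at move in opposite directions.

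The 14 genes past 2-fold in both pairs were 6 higher and 8 lower, 0.0522% and 0.0696% of the genes tested. In single pairs, 28 genes were 2-fold or more higher and 55 lower in VLDLR KO minus Wild type, and 24 higher and 66 lower in the pair without Apoer2. On the higher side Khsrp (smaller pair 1.01) was the last inside the limit and Rps27 (0.96) the first outside. On the lower side Pax6 (-1.09) was the last inside and Ecrg4 (-0.94) the first outside. All 14 had both arrays without Vldlr outside the 2 arrays of the cross with it, which their choice by fold favours. For 10 of the 14 they were outside the Dab1 and Reln knockouts as well. Over all genes 1105 lay outside all 4 arrays with Vldlr (9.61%), but those were not chosen by fold, so the shares are not alike. At 1.5-fold, 56 genes passed in both pairs (0.487%), of which 24 were higher and 32 lower.

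**Figure D3:**
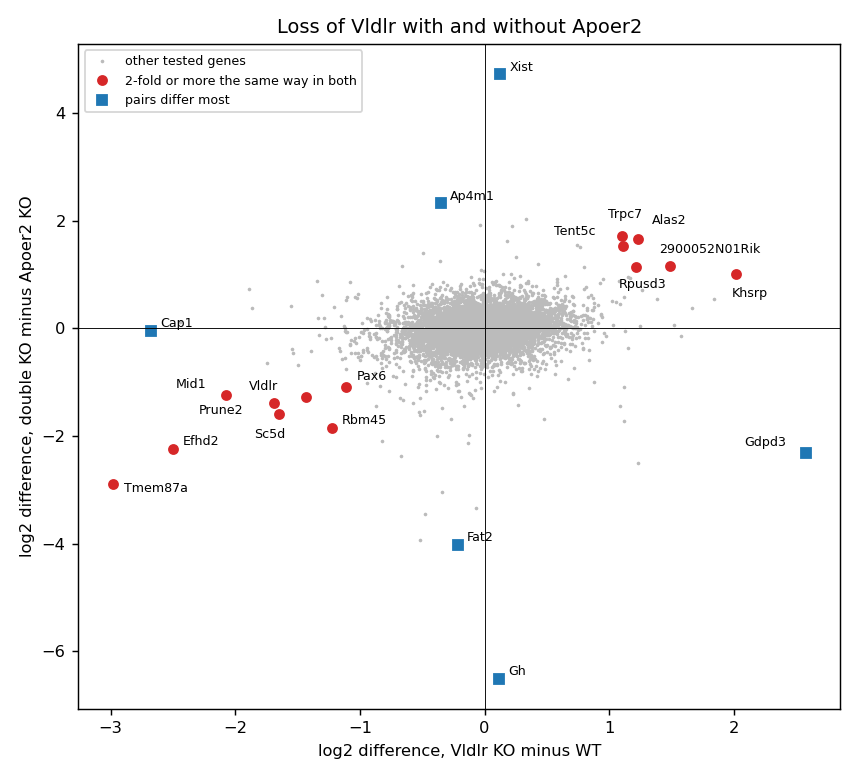
Log2 difference of each tested gene in VLDLR KO minus Wild type (horizontal) against APOER2-VLDLR KO minus APOER2 KO (vertical), 1 point per gene. The 14 red genes were 2-fold or more the same way in both pairs, with Tmem87a farthest at the lower left, and the blue genes are those whose pairs differ most, such as Gh at 0.12 and -6.51.

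Tfrc and Alas2 were among the higher genes that did not pass the test. Tfrc encodes the transferrin receptor, which brings iron into cells. It read 1438.3 on the Wild type, 1547.5 on the APOER2 KO, 2528.4 on the VLDLR KO and 3464.7 on the APOER2-VLDLR KO array, and the Dab1 and Reln knockouts read 1734.1 and 2193.2. Both arrays without Vldlr were above all 4 with it, at all 3 of its gene probe sets and all 3 of its control probe sets on this array in both pairs, with differences of 0.57 to 1.38 in the first and 0.92 to 1.43 in the second (limma adjusted p = 0.239 for the brightest). Alas2, the erythroid enzyme that starts heme synthesis, read 157.3, 247.9, 406.1 and 848.1 in the same order, higher by 1.23 and 1.67 (limma adjusted p = 0.336). With Apoer2 status as a covariate both passed, at adjusted p = 0.0352 for Tfrc and 0.0348 for Alas2. Both genes were picked by size on the same arrays, so refits on fewer of these arrays are no further test of them. With 1 array left out in turn, the difference was 0.75 to 1.20 for Tfrc and 0.94 to 1.95 for Alas2. Of the list of blood genes, only 3 of 12 passed the filter, and these 3 (Alas2, Bpgm and Hbb-b2) were higher in both pairs, as 30.5% of all tested genes were. The globin genes Hba-a1 and Hba-a2 read at most 40.8 on any array, and Slc4a1, the anion exchanger of red cells, read 29.8, 30.1, 72.9 and 127.1. The part of blood in the values of Alas2 was not tested.

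The other genes highest in both pairs had varied roles. Rpusd3, a pseudouridine synthase of mitochondria, was higher by 1.22 and 1.15, and Trpc7, a cation channel, by 1.11 and 1.72. Khsrp, a splicing and mRNA decay factor, gave 2.02 and 1.01, with its 3 probe sets higher in both pairs, and the ribosomal protein gene Rps27 gave 1.15 and 0.96. Tent5c, a poly(A) polymerase, gave 1.11 and 1.53. Islr2, a membrane protein of axon growth, gave 0.95 and 0.91, A2ml1, of the alpha-2-macroglobulin family, 1.08 and 0.88, and the interferon-induced Rsad2 0.92 and 0.84. Rorb, the nuclear receptor that marks cortical layer IV, gave 1.17 and 0.94 at its brightest probe set, and its other probe sets were lower in both pairs. None of these passed the test (limma adjusted p = 0.157 for A2ml1 to 0.467 for Tent5c). For Rpusd3, Khsrp and Islr2 the arrays without Vldlr did not lie above all 4 with it, and for the others of this paragraph they did. Islr2 read 535.0 on the Dab1 knockout, against 423.3 on the VLDLR KO and 507.1 on the APOER2-VLDLR KO array. Khsrp read 237.8 on the Reln knockout, against 221.3 and 196.6, and Rpusd3 146.6 on the Dab1 knockout, against 133.3 and 160.5. The genes in this paragraph were picked by size on the same arrays, so refits on fewer of these arrays are no further test of them. With 1 array left out in turn, the difference was 0.69 to 1.94 for Tent5c, the widest range. It was 0.85 to 0.91 for Rsad2, the narrowest.

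The other genes lowest in both pairs did not pass either. Mid1, a microtubule-associated ubiquitin ligase, read 469.0 on the Wild type, 304.7 on the APOER2 KO, 90.2 on the VLDLR KO and 112.4 on the APOER2-VLDLR KO array (limma adjusted p = 0.157). The arrays without Vldlr were below all 4 with it, of which the Reln knockout was lowest at 182.7. Rbm45, an RNA-binding protein, gave -1.22 and -1.84. Lcat, which esterifies cholesterol on lipoprotein particles, read 411.6, 328.6, 217.7 and 142.5 on the Wild type, APOER2 KO, VLDLR KO and APOER2-VLDLR KO arrays, differences of -0.84 and -1.06 (limma adjusted p = 0.322). The Dab1 and Reln knockouts were as low, at 180.6 and 111.2. Ecrg4, a secreted peptide precursor of the choroid plexus, gave -0.94 and -1.02, Afap1l2, an actin-associated adaptor, -0.87 and -1.45, and Exph5, a Rab27 effector, -0.88 and -0.83. For Ecrg4, Afap1l2 and Exph5 the arrays without Vldlr did not lie below all 4 with it, whereas for Rbm45 they did. Exph5 read 203.8 and 160.7 without Vldlr, and 143.6 and 74.2 on the Dab1 and Reln knockouts. Against all 4 arrays the differences were -0.55 for Ecrg4, -0.61 for Afap1l2 and -0.10 for Exph5. Pax6, a transcription factor of neural progenitors and granule cells, gave -1.11 and -1.09 at its brightest probe set, while its 5 probe sets did not all go the same way. These 7 genes were picked by size on the same arrays, so refits on fewer of these arrays are no further test of them. With 1 array left out in turn, the difference was -1.95 to -1.37 for Mid1, -1.92 to -1.15 for Rbm45 and -1.17 to -1.03 for Pax6. It was -1.13 to -0.83 for Ecrg4, -1.30 to -1.01 for Afap1l2, -1.22 to -0.69 for Lcat and -1.03 to -0.68 for Exph5.

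**Figure D4:**
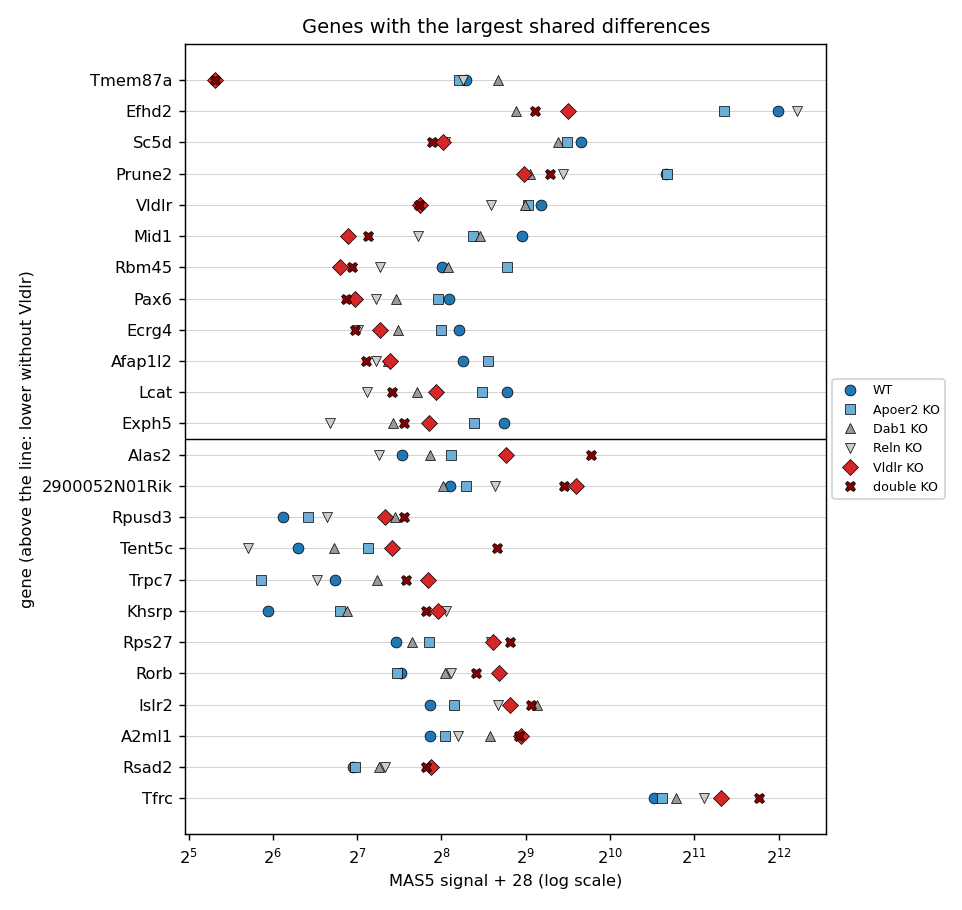
Signal + 28 on a log2 axis for the 12 lower genes (above the line) and 12 higher genes (below it) with the largest difference shared by both pairs, 1 point per array. For 15 of the 24 both red points lie outside all 4 arrays with Vldlr, and for Efhd2 the grey Dab1 KO point lies below both of them.

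Across all tested genes, 57.7% moved in the same direction in both pairs, 30.5% higher and 27.2% lower. The pairs share no array, and their differences correlated weakly across genes (Pearson 0.201, Spearman 0.2, genes not being independent replicates). At an unadjusted p of 0.05, 518 genes were higher (4.5%) and 553 lower (4.81%) by limma. Set beside this, the loss of Apoer2 on the same 4 arrays gave 3 genes at an adjusted p of 0.05 (0.0261%) and 5 genes at 2-fold or more the same way in both of its pairs (0.0435%), and 51.8% of genes moved the same way. Its calls were Lrp8 (-3.44), Pam (2.26) and Gnb1 (1.05). The 6 genes called for Vldlr differed by -0.65 to 0.30 with loss of Apoer2, with Efhd2 the lowest. Those same Apoer2 differences form the residual spread of the Vldlr test. Genes that passed it were thereby selected for small ones, and no conclusion is drawn from their size.

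Genes near Vldlr were examined because littermates can carry different segments around a targeted gene. Vldlr lies on chromosome 19, and so do Prune2 and Rorb, 24 and 17 tested genes away in the gene order of RefSeq's mouse assembly GRCm38.p6. Rorb is the nearest tested gene past 1.5-fold in both pairs, and the 16 tested genes on each side of Vldlr, a window that ends where Rorb begins, differed by -0.39 to 0.26. By that limit the window holds no other gene past 1.5-fold in both pairs, so no conclusion is drawn from its range. The tested genes next to Vldlr, Smarca2 and Pum3, were at -0.12 each. Besides Vldlr, Prune2 and Rorb, the genes of this chromosome at 1.5-fold or more in both pairs were Afap1l2 and Capn1. Afap1l2 (-0.87 and -1.45) lies 161 and Capn1 (-0.60 and -0.61) 140 tested genes away. Over the whole chromosome 5 of 401 genes reached 1.5-fold in both pairs, Vldlr among them, and 4 of 400 (1.0%) without it. With or without Vldlr, that share was the highest of the 20 chromosomes. Chromosome 12 came next at 0.962%, and the share over all tested genes was 0.487%. The part of strain background in these values was not tested.

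Of the LDL receptor family and its ligands, 22 of 28 listed genes passed the filter, 8 were higher and 5 lower in both pairs, and 1, Vldlr, passed the test. For this list and those below, the shares over all tested genes were 30.5% higher and 27.2% lower in both pairs. At an unadjusted p of 0.05 by limma they were 4.5% higher and 4.81% lower. The median of the LDL receptor family list was 0.03 in the first pair and 0.11 in the second, against 0.00 and 0.02 over all genes. Leaving aside Vldlr and Sorl1, the other 20 differed by -0.16 to 0.32. Plat, the tissue plasminogen activator that is cleared through these receptors, was the highest of them, at 621.2, 737.9, 841.3 and 869.0 on the Wild type, APOER2 KO, VLDLR KO and APOER2-VLDLR KO arrays. Thbs1, a thrombospondin that binds both receptors, was the lowest at -0.16. Apoe, the main brain apolipoprotein, read 7112.5, 8819.4, 7416.9 and 9953.6, with overlapping groups, and Mylip, the ubiquitin ligase that degrades these receptors, differed by -0.16 and 0.12. Lrp1 (0.03 and -0.27), Lrp2 (-0.44 and 0.18), Lrp4 (0.03 and -0.07) and Lrp10 (0.28 and -0.29) changed sign between the pairs, while Lrp6 (-0.03 and -0.17) and Lrp3 (-0.01 and -0.06) were slightly lower in both. Lrp12 (0.36 and 0.14), Lrp11 (0.17 and 0.08), Lrp1b (0.04 and 0.12) and the chaperone Lrpap1 (0.05 and 0.13) were slightly higher in both. Clu and Selenop, ligands of Apoer2, were at 0.00 and 0.06, Lpl at 0.07 and App at -0.04.

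Inside the cell, 40 of 42 listed genes of the reelin signal passed the filter, 16 were higher and 8 lower in both pairs and 0 passed the test (limma, 3 higher and 3 lower at an unadjusted p of 0.05). Those 16 and 8 are 40.0% and 20.0% of the list, beside 30.5% and 27.2% of all tested genes. Gsk3b, a kinase held in check by this pathway, was the highest: 922.3, 1000.5, 1224.3 and 1430.2 on the Wild type, APOER2 KO, VLDLR KO and APOER2-VLDLR KO arrays (0.40 and 0.50, limma adjusted p = 0.37). Cdk5r2, an activator of the kinase Cdk5, gave 0.41 and 0.26. Pik3cb, a catalytic subunit of phosphoinositide 3-kinase, gave -0.50 and -0.31, and the adaptor Nck1 -0.45 and -0.24. The list medians were 0.11 and 0.03.

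Sc5d was the 1 of 24 tested sterol genes that passed. In both pairs 2 of the 24 were higher and 7, Sc5d included, lower (8.3% and 29.2%, beside 30.5% and 27.2% of all tested genes). Scd1, a fatty acid desaturase, gave -0.78 and -0.05, Cyp51, which removes a methyl group from lanosterol, -0.42 and -0.28, and Idi1 of the isoprenoid branch -0.40 and -0.23. Tm7sf2, a sterol reductase, gave 0.35 and 0.36. The list's medians were -0.08 and -0.02, and Srebf2, the regulator of the pathway, was at 0.04. Among 27 tested genes of lipid uptake and storage, 11 were higher and 6 lower in both pairs and 0 passed (limma, 3 higher and 1 lower at an unadjusted p of 0.05), with the thioesterase Acot2 at 0.74 and 1.55, Dgat2 at 0.47 and 0.50, Apod at -0.94 and 0.19 and Abcg1 at -0.32 and -0.27.

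Genes of heat shock and endoplasmic reticulum (ER) stress were lower in most cases. Of 20 tested, 0 were higher and 15 lower in both pairs, 0 passed an adjusted p of 0.05, and 10 were lower at an unadjusted p of 0.05 by limma. Over all tested genes, 27.2% were lower in both pairs and 4.81% were lower at that unadjusted p. The medians were -0.31 and -0.20, with a mean difference whose median was -0.33, and -0.39 without the APOER2 KO array, but -0.14 against all 4 arrays with Vldlr and -0.21 for genes above a signal of 300. Hspa5, the ER chaperone BiP, read 2777.4 on the Wild type, 2748.5 on the APOER2 KO, 2157.9 on the VLDLR KO and 2098.8 on the APOER2-VLDLR KO array. Those groups did not overlap within the cross, although the Dab1 knockout was lower still at 1953.1. Pdia6, a protein disulfide isomerase, read 779.2, 796.5, 555.0 and 523.9 in the same order, and Atf4, the transcription factor of the integrated stress response, 1244.3, 1262.3, 979.6 and 874.0. The lowest of the list were Hspa1a, an inducible heat shock protein (-1.07 and -0.46), and Sdf2l1, an ER protein (-0.45 and -0.68), and the highest were the cochaperone Dnajb9 (-0.00 and 0.18) and Herpud1 (-0.28 and 0.36). This list's median was of the same size in the Dab1 knockout minus Wild type, at -0.36, and -0.13 in the Reln knockout minus Wild type.

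Their promoters were searched for the ER stress element, CCAAT followed by 9 bases of any kind and CCACG, on both strands. RefSeq promoter windows (GRCm38.p6, 250 bases before to 50 after the start) were at hand for 18 listed genes, and 5 held it: Hspa5, Hsp90b1, Creld2, Pdia6 and Calr. Of all 32851 windows 39 held it (0.119%). The matches of 3 of these genes are shown with 30 bases on each side, the element in capitals, read along the gene's strand. They lie at chr2:34771995-34772073 (plus strand) for Hspa5, chr12:17266461-17266539 (plus) for Pdia6 and chr10:86705608-86705686 (minus) for the first of a pair of matches in Hsp90b1.
Hspa5: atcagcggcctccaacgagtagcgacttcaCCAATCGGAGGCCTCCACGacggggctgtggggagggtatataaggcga
Pdia6: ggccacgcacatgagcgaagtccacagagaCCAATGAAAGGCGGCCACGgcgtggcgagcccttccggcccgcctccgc
Hsp90b1: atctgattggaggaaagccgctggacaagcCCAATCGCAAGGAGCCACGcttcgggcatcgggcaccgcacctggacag

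A match is a description of these letters and not a measured binding site. The 5 listed genes with the element were lower in both pairs in 5 cases, and the 12 tested listed genes whose window lacked it in 8. Their median differences were the same size, -0.34 in each set. Of the other 9 tested genes with the element, outside the list, 5 were lower in both pairs.

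The immediate early genes, which neurons switch on within minutes of activity, gave a median whose sign depended on the arrays used. Of 29 tested, 6 were higher and 14 lower in both pairs and 0 passed (limma, 1 higher and 5 lower at an unadjusted p of 0.05). Those 6 and 14 are 20.7% and 48.3% of the list, beside 30.5% and 27.2% of all tested genes. Arc, an activity-regulated synaptic gene, was the lowest, at 282.4 on the Wild type, 778.9 on the APOER2 KO, 64.4 on the VLDLR KO and 489.9 on the APOER2-VLDLR KO array. Its groups overlapped, since the APOER2-VLDLR KO array read above the Wild type array. At each Vldlr status the array without Apoer2 was the higher. Fosl2, of the Fos family, had a mean difference of -0.68, and Nptx2, a secreted pentraxin, gave 0.58 and 0.86 and Ccn1 0.21 and 1.01. The list's median difference was -0.17, but 0.08 without the APOER2 KO array and 0.05 without the VLDLR KO array.

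Genes of cerebellar granule cells separated the pairs. Of 17 tested, 15 were lower in both pairs, 0 passed the test (limma, 8 lower at an unadjusted p of 0.05), and the median was -0.27 with Apoer2 and -1.68 without it. Beside these counts, 27.2% of all tested genes were lower in both pairs, and 4.81% at that unadjusted p. Gabra6, a GABA receptor subunit confined in the brain mostly to these cells, read 1797.0 on the Wild type, 2014.9 on the APOER2 KO, 1247.6 on the VLDLR KO and 106.6 on the APOER2-VLDLR KO array, and Fat2, a protocadherin, read 642.5, 560.4, 549.1 and 8.4. The VLDLR KO array lay nearer to the Wild type and APOER2 KO arrays, and the APOER2-VLDLR KO array near the Dab1 and Reln knockouts, where Gabra6 read 185.7 and 251.5. The highest of the list were Reln (0.17 and -0.28) and Zic4 (-0.03 and -0.28). The median difference was -1.07, but -0.23 without the APOER2-VLDLR KO array, -1.81 without the VLDLR KO array, -1.04 without the APOER2 KO array and -0.33 against all 4 arrays with Vldlr. In these bulk samples fewer cells of a type and less RNA per cell cannot be told apart, and how much cerebellum was in each sample cannot be told apart from genotype.

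Markers of other tissues and of cortical layers were read in the same way. The 4 tested choroid plexus genes were lower in both pairs, with medians of -0.56 and -0.18, and Ttr, their most abundant, read 7724.2, 7609.9, 5158.9 and 6872.6 on the Wild type, APOER2 KO, VLDLR KO and APOER2-VLDLR KO arrays. Their summed signal was 9165.9 and 8970.5 with Vldlr and 6115.8 and 7970.0 without it, and its part in the lower Ecrg4 values was not tested. Of 13 genes of meninges and fibroblasts, 0 were higher and 7 lower in both pairs, with Mgp, an inhibitor of calcification, at -0.66 and -1.34 and Col1a1, a fibrillar collagen, at -0.64 and -1.03. Genes of the upper cortical layers were 9 higher and 2 lower of 17, with medians of 0.22 and 0.06. Their median difference of 0.17 was 0.01 with the mean of all probe sets. Lmo4, a transcriptional cofactor, was higher by 0.41 and 0.44, and Kitl, a growth factor, lower by -0.21 and -0.18. Deep layer and subplate genes were 11 higher and 3 lower of 21, with medians of 0.18 and 0.00, and their median difference was -0.04 without the VLDLR KO array. In each of these lists 0 genes passed the test, and by limma at an unadjusted p of 0.05 there were 2 lower choroid plexus genes, 3 lower meningeal genes, 5 higher upper layer genes and 5 higher deep layer genes. Over all tested genes, 30.5% were higher and 27.2% lower in both pairs, and 4.5% higher and 4.81% lower at that unadjusted p.

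Among the other lists, mitochondrial respiration had 15 of 21 genes higher and 0 lower in both pairs, beside 30.5% and 27.2% of all genes, with small medians of 0.07 and 0.10. Its median difference of 0.08 was 0.01 after quantile normalization, 0.02 against all 4 arrays with Vldlr and 0.02 without the APOER2-VLDLR KO array. Uqcrfs1, of respiratory complex III, gave 0.35 and 0.26, and Ndufb5, of complex I, -0.12 and 0.06. Ribosomal protein genes had 7 of 15 higher and 0 lower, with a median difference of 0.13 that was 0.06 after quantile normalization and 0.04 without the APOER2-VLDLR KO array. Interferon response genes had 1 of 9 higher, Rsad2, and 6 lower, with medians of -0.31 and -0.22, and a median difference of -0.24 that was -0.05 against all 4 arrays with Vldlr. Ifitm3, a restriction factor for viruses, gave -0.58 and -0.50, and Ifi27 -0.66 and -0.41. Wnt pathway genes had 10 of 21 higher and 4 lower, with Tcf7l2 at 0.86 and 0.34, Rspo2 at 0.46 and 0.45, Fzd7 at -0.47 and -0.91 and Fzd1 at -0.51 and -0.36. Genes of VEGF and hypoxia had 9 of 16 higher and 2 lower, with Egln3 at 0.31 and 0.33 and Ldha at 0.29 and 0.32. Of the genes in these 5 lists 0 passed the test, and by limma at an unadjusted p of 0.05 there were 2 higher mitochondrial genes, 1 higher ribosomal gene, 1 higher and 3 lower interferon genes, 3 higher and 2 lower Wnt genes and 1 higher gene of hypoxia.

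**Figure D5:**
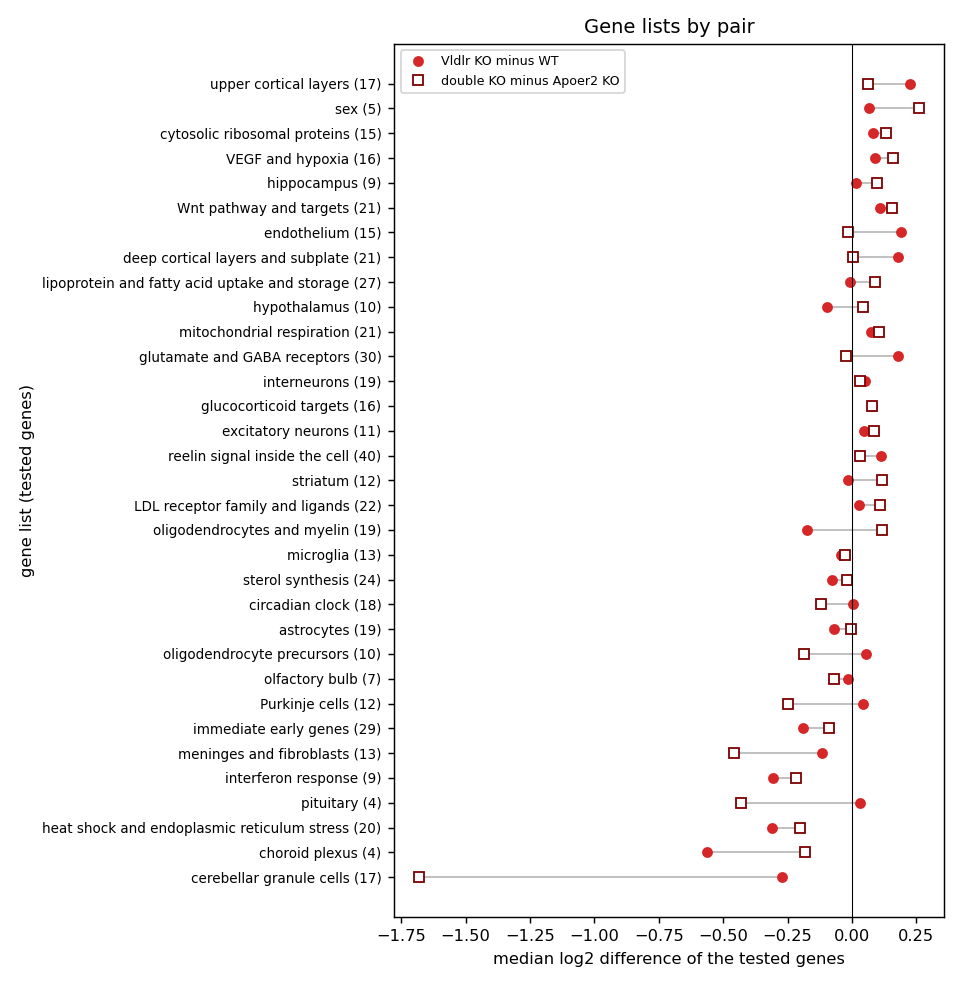
Median log2 difference of each gene list in the pair with Apoer2 (filled points) and the pair without it (open squares), with the number of tested genes in brackets. Both medians were lower in 10 of 33 lists and higher in 13, and the pairs lie farthest apart for cerebellar granule cells, at -0.27 and -1.68.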

How the data were processed

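Gene expression was measured on 1 array for each of 6 genotypes, and the 4 of the receptor cross were compared. Linear signal intensities were deposited by the authors; the submitters' processing notes name Affymetrix Expression Console and MAS5, and their versions are not given here. Of 45101 probe sets, 34958 named 1 gene in the platform annotation, 932 named several and 9211 are unnamed here; 34754 matched RefSeq by gene ID, and 0 symbols changed. Each gene took its brightest probe set, and 11499 of 18194 genes whose mean signal reached 89.0 (the median of probe sets) were tested.

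Arrays without Vldlr were compared with arrays with it by limma 3.58.1 in R 4.3.3 on log2(signal + 28), with a trended prior and Benjamini-Hochberg adjustment; this was tested on simulated data. The residual spread (2 degrees of freedom) holds differences of Apoer2 status. Depth has no counterpart on arrays, whose number limits the precision.

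Named genes were the targeted genes, sex-linked genes, every gene past an adjusted p of 0.05, the 12 highest and 12 lowest by the smaller of both pair differences, the 3 at each end by the difference between pairs, the 2 highest and 2 lowest of each list described, and the LDL receptor family; a few others were named after their values were seen (Hspa5, Pdia6 and Atf4, genes beside Vldlr, Lmo4, Gsk3b and the like). Members and lists were chosen with earlier results of these data known. Alternatives were Apoer2 as a covariate, all 6 arrays, other pseudocounts, filters, normalization and probe set rules, no trend, and each array left out. Promoters came from RefSeq's GRCm38.p6.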

Additional observations from a re-analysis of the deposited data

Results flagged for a closer look

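Of the 6 genes whose pairs differed most, 3 went opposite ways with and without Apoer2; with 1 array at each genotype these differences were not tested. Gh, the pituitary growth hormone gene, was at 0.12 in VLDLR KO minus Wild type and -6.51 in APOER2-VLDLR KO minus APOER2 KO, a gap of -6.62 that comes from 3704.8 on the APOER2 KO array alone. Gdpd3, which encodes a lysophospholipase D, was at 2.58 and -2.31, a gap of -4.89: it read 55.0 on the Wild type, 232.7 on the APOER2 KO, 467.7 on the VLDLR KO and 24.5 on the APOER2-VLDLR KO array. Ap4m1, a subunit of the adaptor complex AP-4, was at -0.35 and 2.32, a gap of 2.67, with its lowest value, 20.8, on the APOER2 KO array. Of 33 gene lists, 10 had medians of opposite sign, and in 1 of them both medians were over 0.1 in size: the 19 genes of oligodendrocytes and myelin, at -0.17 with Apoer2 and 0.12 without it, a gap of 0.29. The others include pituitary genes (0.03 and -0.43) and Purkinje cell genes (0.04 and -0.25).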

How the results depend on the processing

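The 6 genes past an adjusted p of 0.05 became 8 with Apoer2 as a covariate, 5 with a filter at 300 and 9 over every probe set, and stayed 6 under both other pseudocounts and quantile normalization. They became 1 (Tmem87a) with all 6 arrays in 3 groups, against all 4 arrays with Vldlr, with the mean of all probe sets and with no trend, and 0 with no filter (limma, 1439 at an unadjusted p of 0.05). Leaving out 1 array gave 7 to 103: 7 without Wild type (3 of the 6 shared), 9 without APOER2 KO (5), 103 without VLDLR KO (6) and 21 without APOER2-VLDLR KO (6), each lone array being assumed to vary like the others. The 14 genes at 2-fold became 20 with a pseudocount of 1, 7 with one of 90, 28 with no filter, 6 with a filter at 300, 7 with the mean of all probe sets, 30 over every probe set and 56 at 1.5-fold. Vldlr kept its direction, at -1.36 (limma adjusted p = 0.159 in 3 groups, 0.134 with no filter, 0.114 with no trend), -1.20 against all 4 arrays (0.254) and -1.20 with the mean of all probe sets (0.241), and -1.43 to -1.28 with 1 array left out. Prune2 reversed to 0.20 and Sorl1 to -0.10 with the mean of all probe sets. Both list medians had the same sign in 23 of 33 lists, and in 20 to 24 under the alternatives. Apart from the filters, array numbers and probe set rules, which change what is tested, the cause was not tested. Of the values for single genes other than Vldlr, 301 kept their side of the threshold, 20 passed it and 22 lost it. The 2 that reversed were those of Prune2 and Sorl1 given above. The labels carry no replicate numbers, and the arrays pair by Apoer2 status alone, the covariate given above. Signals at or below the bacterial controls are bounds, not levels.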

Other observations

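Glial genes showed no shared direction. Of 19 tested astrocyte genes 4 were higher and 7 lower in both pairs, and 0 passed the test (limma, 0 higher and 1 lower at an unadjusted p of 0.05). Those 4 and 7 are 21.1% and 36.8% of the list, beside 30.5% and 27.2% of all tested genes. At that unadjusted p, 4.5% of all tested genes were higher and 4.81% lower. Serpina3n, a protease inhibitor of reactive astrocytes, read 807.9 on the Wild type, 847.3 on the APOER2 KO, 770.8 on the VLDLR KO and 58.7 on the APOER2-VLDLR KO array, so that only the last stood apart within the cross. Gfap, the intermediate filament of astrocytes, read 1604.4, 1247.3, 809.3 and 1218.8 in that order, lowest on the VLDLR KO array. Aqp4, the astrocyte water channel, gave -0.41 and -0.50. Of 13 microglial genes 3 were higher and 4 lower in both pairs (23.1% and 30.8%), with medians of -0.04 and -0.03. Cap1, which recycles actin, read 983.6, 1668.8, 130.1 and 1621.2, a difference of -2.68 with Apoer2 and -0.04 without it.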
